A study of Mus musculus with 9 samples.

Results

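The markers described here were 10 genes that are used to tell apart the lineages of the mouse blastocyst, chosen by symbol from the 22564 protein-coding genes of the expression table. They were the trophectoderm genes Cdx2, Elf5, Gata3, Krt8 and Krt18, the epiblast and pluripotency genes Pou5f1, Nanog, Sox2 and Klf4, and the primitive endoderm gene Gata6. Their RNA was measured in 9 sequencing libraries of C57BL/6 blastocysts taken at day 3.5 after fertilization, 3 libraries per group, each made from 5 pooled blastocysts. The ICSI group came from oocytes injected with normal sperm (intracytoplasmic sperm injection). The ICSI-AOA group came from the same injection followed by artificial oocyte activation (AOA) with 2.5 µM ionomycin, a calcium ionophore. The dICSI-AOA group came from injection of oocyte activation-deficient sperm, heads that had been kept warm until they no longer triggered activation well, followed by the same ionomycin treatment. All blastocysts were thus ICSI-derived, and no blastocyst from natural fertilization or from deficient sperm without ionomycin was analysed here. The comparison of ICSI-AOA with ICSI addressed the ionomycin treatment, while dICSI-AOA against ICSI changed both the sperm and the treatment.

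The blastocyst has an outer epithelium, the trophectoderm, which gives rise to the placenta, and an inner cell mass that separates into epiblast, the source of the embryo, and primitive endoderm, the source of yolk sac tissue. Cdx2 and Gata3 are transcription factors that set up the trophectoderm programme, and Elf5 is an Ets factor of trophoblast stem cells. Krt8 and Krt18 encode a type II and a type I keratin that pair into the intermediate filaments of simple epithelia. Pou5f1 (Oct4), Nanog and Sox2 form the core pluripotency network, Klf4 is a zinc finger factor that works with them, and Gata6 drives the primitive endoderm fate. In pooled whole blastocysts, fewer cells of a lineage and less RNA per cell cannot be told apart.

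The keratin gene Krt8 was lower in both AOA groups than in the ICSI group, with 1 to 4 fragments in the AOA libraries against 8 to 13, by an unadjusted threshold. Elf5 was called lower in ICSI-AOA against ICSI, a call that rested on 1 ICSI library. Its AOA groups did not overlap, as held for 12.0% of all tested genes. Klf4 was not called. Its dICSI-AOA and ICSI groups did not overlap in scaled level, as held for 11.5% of all tested genes. Cdx2, Krt18 and Gata6 were detected with overlapping groups, and Pou5f1, Nanog, Sox2 and Gata3 were not detected.

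Fragments assigned to protein-coding genes were few, with 128176 to 172307 per library in ICSI, 150387 to 154606 in ICSI-AOA and 151833 to 163248 in dICSI-AOA. A fragment is here an assigned read pair, recovered by rounding from the deposited estimated count, as the single step by which the counts of a library rise. Of the 20 listed genes that every cell uses, all had fragments, but the best covered, Tubb5, Hsp90ab1 and Ppia, had only 98, 79 and 71 over the 9 libraries. Of the 13 that were tested, the chaperone gene Hspa8 alone was called, lower in dICSI-AOA than in ICSI (log2 fold change -2.70, SE 1.26, edgeR adjusted p = 0.732). Of all listed genes 53.7% had at least 1 fragment in some library.

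Of the 10 lineage markers, 6 were detected and 4 were listed at 0 in every library. Together they held 187 of 1370462 fragments (0.0136%). Elf5 had 64 fragments, Krt8 47, Gata6 32, Cdx2 18, Klf4 18 and Krt18 8. Among detected genes these totals lay at or above the middle: 19.0% of the 12128 detected genes had more fragments than Elf5, 22.2% more than Krt8, 27.0% more than Gata6, 35.0% more than Cdx2 or Klf4, and 48.4% more than Krt18. Per kilobase of annotated exon the order was different. On that scale, in fragments per 1000000 fragments of the libraries (FPM), the level was 17.5 for Krt8, 7.95 for Elf5, 5.81 for Cdx2, 4.31 for Klf4, 4.06 for Krt18 and 3.59 for Gata6.

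**Figure D1:**
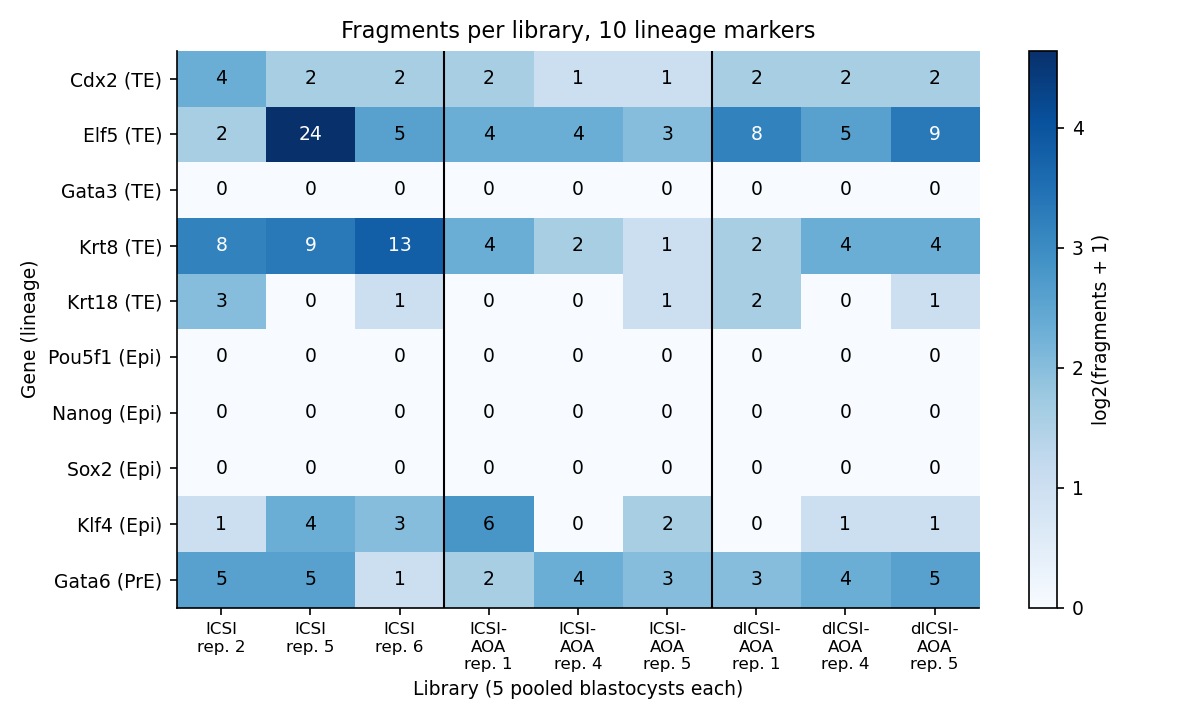
Fragments of the 10 markers (rows; TE trophectoderm, Epi epiblast and pluripotency, PrE primitive endoderm) in the 9 libraries (columns, black lines between groups), with the colour on a log2(fragments + 1) scale and the number printed in each cell. Gata3, Pou5f1, Nanog and Sox2 are at 0 in every library, and the highest cell is Elf5 with 24 fragments in ICSI replicate 5.

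Gata3, Pou5f1, Nanog and Sox2 had 0 fragments in each of the 9 libraries. A count of 0 allows up to 3 fragments, which over all libraries is 2.19 FPM. Divided by exon length, this limit was 0.550 per kilobase for Gata3, 0.974 for Pou5f1, 0.976 for Nanog and 1.06 for Sox2, each below the level of every detected marker on the same scale. Limits of this kind, like the counting intervals given here, cover counting error only. Why the 4 genes were listed at 0 was not tested. Sox2 differed from the other 3 in its annotation. The interval given for it in the table ran over 578 kb of chromosome 3 (mm10, 34104392 to 34682619, plus strand), while the gene in GENCODE M21 covers 2.06 kb (34650405 to 34652461) in a single exon.

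Detection in wider marker lists ran from 40% to 70%. Of 30 further trophectoderm genes 13 were detected, of 30 epiblast and pluripotency genes 12, and of 30 primitive endoderm genes 21, against the 53.7% of all genes given above. The trophectoderm genes were led by Ezr, which encodes the microvillus protein ezrin (208 fragments), and by Atp1b1, a subunit of the sodium pump that drives blastocoel expansion (73 fragments). The most fragments among epiblast genes fell on Tbx3 (36) and Sox15 (28), both transcription factor genes. Nodal and Lefty1, a ligand of the TGF-beta family and its inhibitor, had 13 and 15. In the primitive endoderm list well covered genes were Ihh, a hedgehog ligand (90), Col4a2, a basement membrane collagen (38), and Cubn, an endocytic receptor (32), and Hnf4a, a transcription factor of endoderm, had 24.

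Many of the regulators that are taken to define the lineages were not detected. The genes of this paragraph were picked from the lists after their values were seen. In the trophectoderm list Tead4, which acts upstream of Cdx2, and Tfap2c, Eomes and Hand1, further trophoblast transcription factors, were at 0, while Yap1, the cofactor of Tead4, had 15 fragments. In the epiblast list Fgf4, the growth factor of the epiblast, and Esrrb, Zfp42 and Dppa3, genes of naive pluripotency, were at 0. In the primitive endoderm list Sox17 and Sox7 were at 0, whereas Gata4 had 5 fragments and Pdgfra, the receptor that marks primitive endoderm, had 2. Why these genes were at 0 was not tested.

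Markers of cells that could accompany an embryo were measured too. Of 15 cumulus cell genes 6 had fragments, and Star, which encodes the mitochondrial cholesterol carrier of steroid-producing cells, held 307 of their 317. The other 5 had few fragments, with 4 for Has2, which encodes a hyaluronan synthase of the expanding cumulus, 2 each for Ptx3 and Inhbb, and 1 each for Inhba and Amh. The remaining genes of the list were at 0, among them, picked after their values were seen, Fshr, Cyp19a1 and Foxl2, defining genes of granulosa cells. The summed cumulus list was 23 to 35 fragments in ICSI libraries, 31 to 36 in ICSI-AOA and 33 to 49 in dICSI-AOA. Of 15 sperm and spermatid genes 4 were detected, with the protamine genes Prm1 and Prm2 at 0, led by Tssk1 with 16, Gapdhs with 12 and Ldhc with 8 fragments, with sums of 2 to 5, 3 to 9 and 2 to 4 fragments in the same order of groups. Of 15 oocyte genes 5 were detected, with sums of 1 to 3, 0 to 3 and 0 to 4. Nobox, an oocyte homeobox gene, held 12 of the 17 fragments, Zp2 had 2, and Zp1, Gdf9 and Mos had 1 each. The remaining oocyte genes were at 0, among them Bmp15 and Zp3. These, like Prm1 and Prm2, were picked after their values were seen. Of the 3 lists only 1 cumulus gene (Star), 2 sperm genes (Tssk1 and Gapdhs) and 1 oocyte gene (Nobox) were tested across groups. None of them was called in any comparison. Star had a log2 fold change of 0.53 in dICSI-AOA against ICSI (SE 0.26, edgeR adjusted p = 0.735). The part of such cells in the results below was not tested.

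Tests across genes were made with edgeR's quasi-likelihood test on fragments of the 4304 genes with a mean of at least 1 FPKM (fragments scaled to transcript length and library size). A gene was called when it changed by over 1.3-fold with an unadjusted p below 0.05, and p-values adjusted by Benjamini-Hochberg over the 4304 genes are given beside it. Of the 10 markers 3 entered the tests, Elf5, Krt8 and Klf4, and 3 detected markers did not. Mean FPKM was 3.24 for Elf5, 2.495 for Krt8 and 1.13 for Klf4, just inside the limit, against 0.924 for Gata6, 0.763 for Cdx2 and 0.565 for Krt18. Gata6, with more fragments than Klf4, thus stayed out of the main tests. The 3 comparisons with ICSI share its libraries. By the unadjusted threshold edgeR called 2 markers in ICSI-AOA against ICSI, 1 in dICSI-AOA against ICSI, 0 between the AOA groups and 1 with both AOA groups against ICSI, while DESeq2 called 1, 1, 0 and 1. Over all tested genes edgeR called 7.06%, 6.60%, 6.60% and 6.92% and DESeq2 3.39%, 3.09%, 2.81% and 3.51% in the same order. No marker had an adjusted p below 0.05 by either tool. By the methods of the study the 3 pools of a group were independent replicates. Whether they came from separate rounds of injection is not stated there, and the p-values measure the spread between these pools.

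Krt8 (chromosome 15, mm10, 101996711 to 102004342, minus strand) was the marker called in each comparison with ICSI. It had 8, 9 and 13 fragments in the ICSI libraries, 4, 2 and 1 in ICSI-AOA, and 2, 4 and 4 fragments in dICSI-AOA. Every ICSI library was thus above every AOA library, and the AOA groups overlapped. In FPM, here scaled by TMM over the tested genes, the level was 72.9 ± 20.1 (SD, n = 3) in ICSI, 15.7 ± 10.3 in ICSI-AOA and 22.0 ± 7.96 in dICSI-AOA. The deposited FPKM gave the same order of the group means, with 4.50 ± 1.45, 1.25 ± 1.04 and 1.73 ± 0.547 (SD, n = 3). A processed pseudogene, Krt8-ps, is annotated elsewhere in the genome, and how reads shared with it were assigned is not given in the sources used here. The ICSI group held both the library with the fewest and the library with the most assigned fragments of the 9.

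By edgeR's test Krt8 was lower in ICSI-AOA than in ICSI by a log2 change of -2.15 (SE 0.62, adjusted p = 0.414). Among all tested genes, 4.07% were called lower in this comparison and 7.06% were called in either direction. From the summed fragments, 7 against 30, the level was 4.62-fold lower, with an exact 95% counting interval of 1.99 to 12.5. Compared to ICSI, dICSI-AOA was lower by a log2 change of -1.69 (SE 0.59, adjusted p = 0.508), where 3.51% of all tested genes were called lower and 6.60% in either direction. That ratio, 10 against 30 fragments, was 3.32-fold lower with an interval of 1.58 to 7.60. With both AOA groups joined, the log2 fold change was -1.92 (SE 0.50, adjusted p = 0.231), beside 4.28% of genes called lower and 6.92% called in either direction.

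An exact two-sided permutation of the libraries on scaled FPM gave Krt8 p = 0.1 for either AOA group against ICSI, the smallest value that 3 against 3 libraries allow. For the 6 AOA libraries against the 3 ICSI libraries it gave p = 0.0119, the smallest that the 84 exact permutations allow. Groups that did not overlap were found for 13.3% of all tested genes in ICSI-AOA against ICSI, for 11.5% in dICSI-AOA against ICSI and for 3.32% with the AOA groups together. The AOA groups did not differ in Krt8 beyond their spread, with a log2 change of 0.46 for dICSI-AOA against ICSI-AOA (SE 0.73, adjusted p = 0.960) and a counting interval of 0.478 to 4.31 for the ratio of 1.39. Krt8 was called against ICSI in all 9 fits that left out a library. Where Krt8 was tested, the call held under the other scalings, filters and tools except in dICSI-AOA by limma on log2(FPKM + 0.1), where the difference was -1.33 (SE 0.66).

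**Figure D2:**
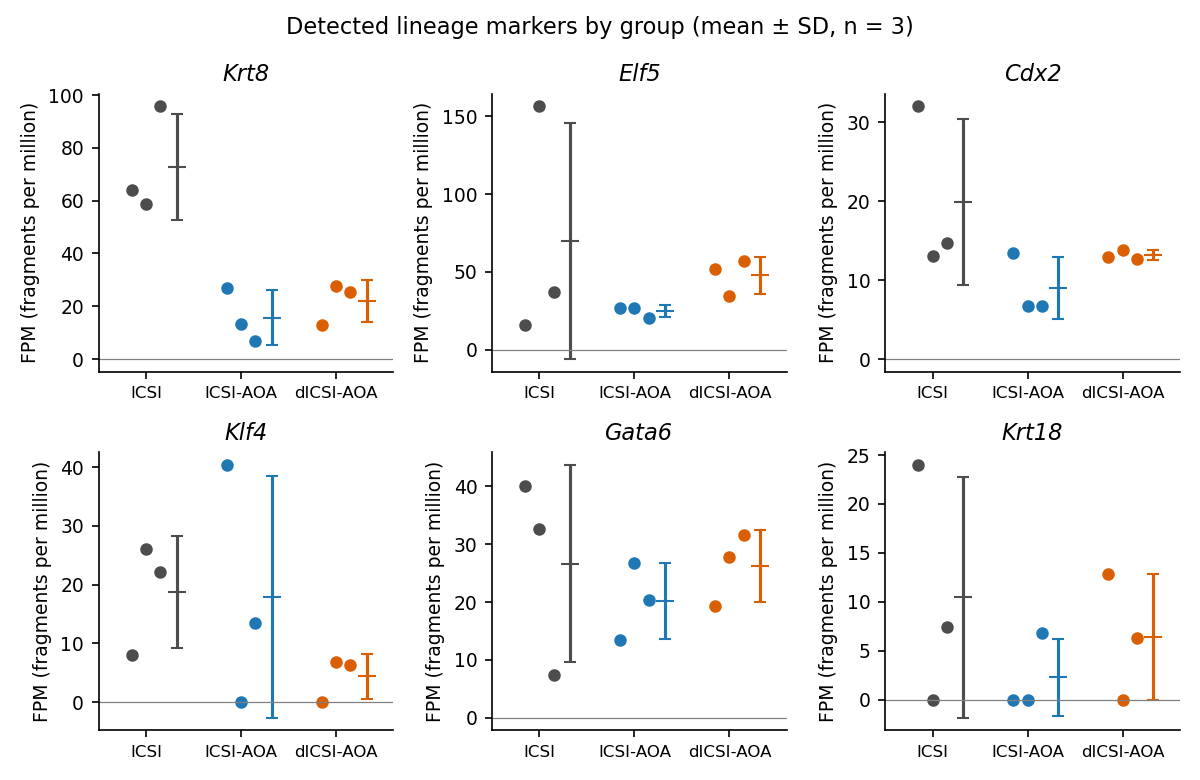
TMM-scaled FPM (y axes, each from its own range) of the 6 detected markers by group (x axes), with 1 point per library and the bar for mean ± SD (n = 3). Krt8 lies at 58.7 to 95.8 in ICSI and at 6.76 to 27.7 in the 6 AOA libraries, while in Elf5 a single ICSI library stands at 156.

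Krt18, the partner keratin, lies next to Krt8 on chromosome 15 (102028216 to 102032026, plus strand). It had 3, 0 and 1 fragments in ICSI, 0, 0 and 1 in ICSI-AOA, and 2, 0 and 1 fragments in dICSI-AOA. With 8 fragments in 5 of 9 libraries, all groups overlapped. The ratio of ICSI-AOA to ICSI was 0.232 with a counting interval of 0.00471 to 2.35. With so few fragments, a change of the size seen in Krt8 could neither be shown nor set aside. In the fit without a filter Krt18 had a log2 change of -1.80 (SE 1.55, adjusted p = 0.785).

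Other keratins showed mixed patterns. Of 47 numbered keratin genes 11 were detected and 7 had at least 10 fragments. Krt20, a keratin best known from gut epithelium, had the most with 7, 15 and 22 fragments in ICSI, 9, 6 and 6 in ICSI-AOA, and 8, 3 and 6 fragments in dICSI-AOA. It was called lower against ICSI in ICSI-AOA (log2 fold change -1.15, SE 0.47, adjusted p = 0.599) and in dICSI-AOA (-1.49, SE 0.49, adjusted p = 0.448), although ICSI replicate 2 lay among the AOA libraries. Krt19, a simple epithelial keratin of the trophectoderm list, had 5, 3 and 4 fragments in ICSI, 4, 5 and 5 in ICSI-AOA, and 2, 2 and 0 fragments in dICSI-AOA. It was called lower in dICSI-AOA than in ICSI-AOA (-1.74, SE 0.84, adjusted p = 0.738), beside 6.60% of all genes called in that comparison. Krt7, another keratin of simple epithelia, had 0, 3 and 4 fragments in ICSI, 6, 5 and 3 in ICSI-AOA, and 4, 4 and 2 fragments in dICSI-AOA and was not called, nor were Krt10 of the suprabasal epidermis and Krt222. Krt83, a hair keratin, was below the filter.

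**Figure D3:**
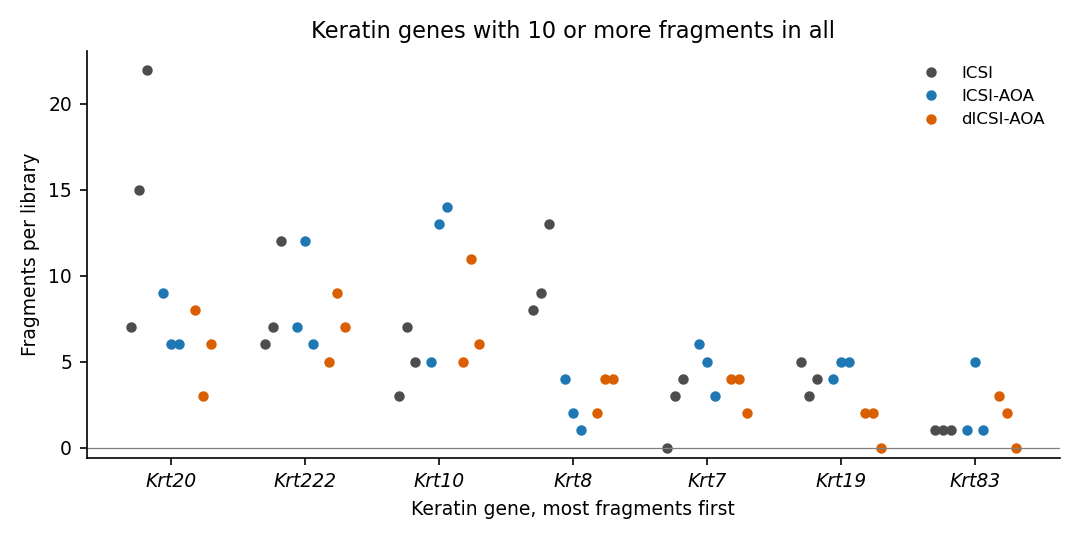
Fragments per library (y axis) of the 7 keratin genes with at least 10 fragments in all (x axis, most fragments first), with 1 point per library coloured by group. Krt8 and Krt20 have their highest libraries in ICSI, whereas the highest Krt10 and Krt7 libraries are ICSI-AOA.

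Elf5 (chromosome 2, mm10, 103411688 to 103450989, plus strand) had the most fragments of the markers and the widest spread within a group. Its fragments were 2, 24 and 5 in ICSI, 4, 4 and 3 in ICSI-AOA, and 8, 5 and 9 fragments in dICSI-AOA. ICSI replicate 5 alone thus held 24 of the 64 fragments, and the other ICSI libraries overlapped both AOA groups. In scaled FPM, the level was 69.8 ± 75.8 (SD, n = 3) in ICSI, 24.7 ± 3.79 in ICSI-AOA and 47.7 ± 11.6 in dICSI-AOA. In ICSI-AOA against ICSI Elf5 was called lower with a log2 change of -1.52 (SE 0.64, adjusted p = 0.599). Without ICSI replicate 5 the value was -0.11 (SE 0.76), and the exact permutation with all libraries gave p = 0.5, so the call rested on that library. It was also lost without ICSI-AOA replicate 5 (-1.41, SE 0.74).

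In the other comparisons Elf5 was not called. Its log2 fold change was -0.59 (SE 0.57, adjusted p = 0.915) in dICSI-AOA against ICSI and -1.06 (SE 0.51, adjusted p = 0.696) with both AOA groups together. Both values changed sign without ICSI replicate 5, to 0.82 and 0.35. Between the AOA groups every dICSI-AOA library was above every ICSI-AOA library, which held for 12.0% of all tested genes in either direction. The difference was 0.94 (SE 0.68, adjusted p = 0.851), and the exact permutation gave the smallest possible p = 0.1.

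The genes closest to each called marker over the 9 libraries were found by Pearson's r of log2 scaled FPM among the genes with a mean of at least 3 fragments. The value is a description, since 3602 genes were compared over libraries that share depth and group. For Krt8 these were Eme1 (r = 0.973), Pcbp1 (0.909), Sgol1 (0.902), Ahsa2 (0.893) and Rbp2 (0.876), which encode an endonuclease subunit, an RNA-binding protein, a guardian of centromere cohesion, a co-chaperone and a retinol-binding protein. Rbp2 had 18, 21 and 25 fragments in ICSI, 22, 5 and 6 in ICSI-AOA, and 10, 15 and 10 fragments in dICSI-AOA. Eme1 and Ahsa2 overlap exons of genes on the other strand by 221 and 2137 bp, so their fragments are uncertain. For Elf5 the closest genes were Scaf4 (r = 0.921), Armc9 (0.880), Nup88 (0.865), Fzr1 (0.863) and 1500035N22Rik (0.853). Nup88 encodes a nucleoporin and Fzr1 an activator of the anaphase-promoting complex. Scaf4 had 24 fragments in ICSI replicate 5 against 4 and 6 in the other ICSI libraries, the same single high library as Elf5.

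**Figure D4:**
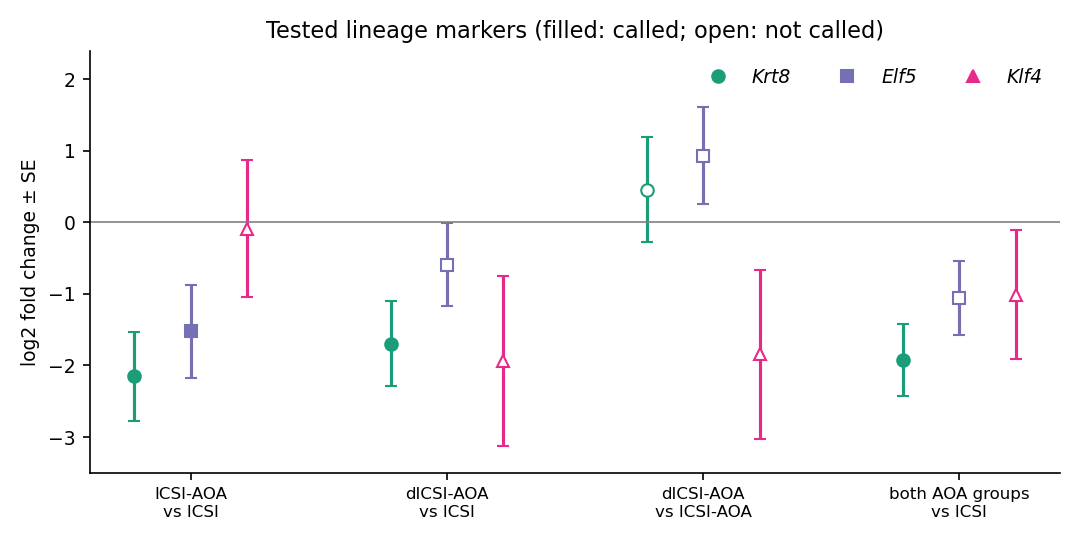
Log2 fold changes with SE (y axis) of the 3 tested markers in the 4 comparisons (x axis) from edgeR's fit over all libraries, filled where called and open where not. Krt8 is filled in the 3 comparisons with ICSI, Elf5 only in ICSI-AOA against ICSI, and Klf4 in none.

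Cdx2 (chromosome 5, mm10, 147300805 to 147307270, minus strand) was detected in all 9 libraries at 1 to 4 fragments. Its fragments were 4, 2 and 2 in ICSI, 2, 1 and 1 in ICSI-AOA, and 2, 2 and 2 fragments in dICSI-AOA. The groups overlapped, and the ratio to ICSI was 0.464 in ICSI-AOA with a counting interval of 0.102 to 1.73 and 0.679 in dICSI-AOA with an interval of 0.194 to 2.23. With the AOA groups joined the ratio was 0.573, with an interval of 0.204 to 1.67, and the exact two-sided permutation of the 6 AOA against the 3 ICSI libraries on scaled FPM gave p = 0.0357, not adjusted for the number of markers, while for either AOA group alone it gave p = 0.2. In the fit without a filter Cdx2 was not called, with log2 fold changes of -1.05 (SE 1.05) and -0.54 (SE 0.99). Of the wider trophectoderm list 6 genes were tested, and none was called against ICSI. Their median log2 fold change was 0.002 in ICSI-AOA and -0.25 in dICSI-AOA against ICSI, where the medians of all tested genes were -0.02 and -0.01. Ezr had 29, 21 and 25 fragments in ICSI, 26, 13 and 24 in ICSI-AOA, and 18, 28 and 24 fragments in dICSI-AOA, and the groups overlapped.

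Summed over the 5 trophectoderm markers, the markers reached 17, 35 and 21 fragments in ICSI, while ICSI-AOA gave 10, 7 and 6 and dICSI-AOA 14, 11 and 16. Without Elf5 the sums were 15, 11 and 16, then 6, 3 and 3, then 6, 6 and 7. Both sums, taken on fragments not scaled for library size, were higher in each ICSI library than in each AOA library. Among single tested genes, 3.32% had scaled levels that did not overlap between ICSI and the joined AOA groups, in either direction. A share of this kind was not computed for sums. In ICSI replicate 5, 24 of the 35 fragments were Elf5. In each ICSI library most of the second sum was Krt8, with 8, 9 and 13 fragments. Cdx2 and Krt18, the other detected markers in the sums, overlapped between the groups. So did the sums over the 30 genes of the wider trophectoderm list, with 41 to 55 fragments in ICSI, 39 to 50 in ICSI-AOA and 31 to 58 in dICSI-AOA.

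Klf4 (chromosome 4, mm10, 55527143 to 55532466, minus strand) was the single epiblast and pluripotency marker with fragments. It had 1, 4 and 3 in ICSI, 6, 0 and 2 in ICSI-AOA, and 0, 1 and 1 fragments in dICSI-AOA. The ICSI-AOA group held both the highest library and a library at 0. In scaled FPM Klf4 was at 8.01, 26.1 and 22.1 in ICSI and at 0, 6.93 and 6.33 in dICSI-AOA. These groups did not overlap, as held for 11.5% of all tested genes, and the exact permutation gave the smallest possible p = 0.1, although the lowest ICSI library and the highest dICSI-AOA library had 1 fragment each. The ratio of dICSI-AOA to ICSI, from 2 against 8 fragments, was 0.226 with a counting interval of 0.0234 to 1.13. Its log2 fold change was -0.09 (SE 0.96, adjusted p = 0.992) in ICSI-AOA while it was -1.93 (SE 1.19, adjusted p = 0.802) in dICSI-AOA against ICSI, and -1.85 (SE 1.19, adjusted p = 0.813) between the AOA groups. Klf4 was not called in any of them. Without ICSI-AOA replicate 4, the library at 0 in that group, the last difference was called at -2.41 (SE 1.13). Of the wider epiblast list Tbx3 and Sox15 were tested, and neither was called in the 4 comparisons.

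For Klf4 and Elf5 the deposited FPKM and the fragments ordered the libraries differently. In ICSI-AOA, replicate 5 had 2 fragments of Klf4 and an FPKM of 2.30, whereas replicate 1 had 6 fragments and an FPKM of 2.09. A single fragment went with 0.239 FPKM in ICSI replicate 2 and with 1.26 FPKM in dICSI-AOA replicate 4. The FPKM per unit of deposited count varied 4.16-fold among the 7 libraries with Klf4 and 1.897-fold for Elf5. It varied by no more than 1.03-fold for Cdx2, Krt8, Krt18 and Gata6. Klf4 has 3 annotated transcripts of 522 to 3029 bp and Elf5 has 7 of 623 to 3262 bp, while Gata6 also has 6 of different lengths. Whether transcript assignment set the difference was not tested. On log2(FPKM + 1), limma gave Elf5 a difference of -0.22 (SE 0.61, not called) in ICSI-AOA against ICSI, in place of edgeR's -1.52 from fragments. These values differ in the test as well as in the scale, since limma averages the log values of the libraries. The parts of scale and test in the gap were not tested.

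**Figure D5:**
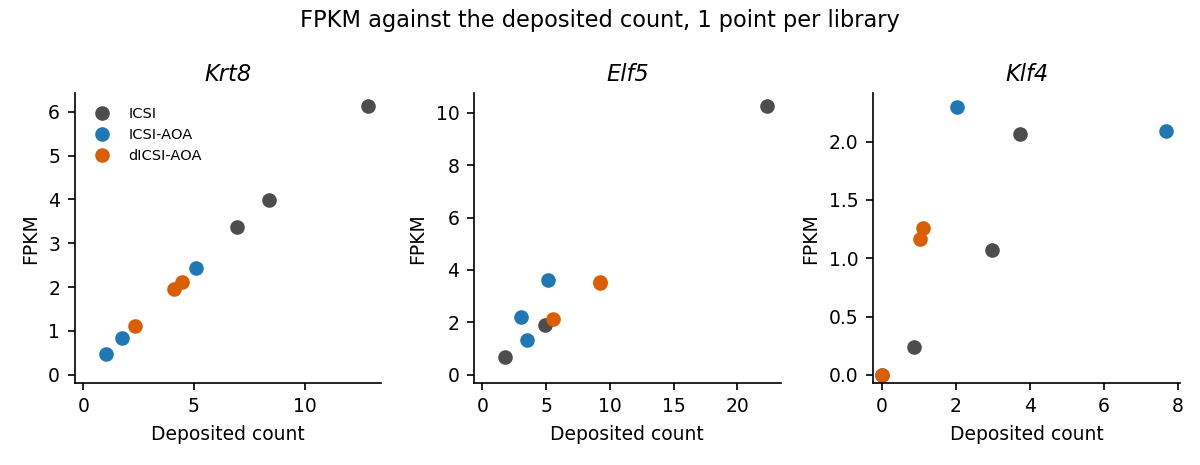
Deposited FPKM (y axes) against the deposited estimated count (x axes) of Krt8, Elf5 and Klf4, with 1 point per library coloured by group. The Krt8 points lie on a line, with FPKM per count varying 1.02-fold, while those of Elf5 and Klf4 scatter by 1.897-fold and 4.16-fold.

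Gata6, on chromosome 18, had fragments in all libraries, and the groups overlapped. It had 5, 5 and 1 fragments in ICSI, 2, 4 and 3 in ICSI-AOA, and 3, 4 and 5 fragments in dICSI-AOA. Mean FPKM was 0.862 ± 0.527 (SD, n = 3) in ICSI, 0.784 ± 0.125 in ICSI-AOA and 1.12 ± 0.216 in dICSI-AOA. The ratio to ICSI was 0.760 in ICSI-AOA with a counting interval of 0.278 to 2.02 and 0.987 in dICSI-AOA with an interval of 0.399 to 2.47. In the fit without a filter it was not called in any comparison. Of the wider primitive endoderm list 5 genes were tested and none was called. Ihh overlapped between the groups, with 9, 11 and 11 fragments in ICSI, 8, 9 and 11 in ICSI-AOA, and 12, 10 and 9 fragments in dICSI-AOA. Cubn, which was below the filter, had 6, 8 and 4 fragments in ICSI, 1, 1 and 1 in ICSI-AOA, and 4, 3 and 4 fragments in dICSI-AOA.

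Some of the markers share sequence with transcripts of the other strand in GENCODE M21. Exons of Krt8 overlap the lincRNA Gm36026 by 101 bp, those of Gata3 overlap Gm13256 by 155 bp, those of Pou5f1 overlap Gm19553 by 317 bp and those of Gata6 overlap 1010001N08Rik by 93 bp. These partners are not among the protein-coding rows analysed here, and the strand setting of the counting is not given in the sources used here, so fragments within the overlap cannot be told apart. In the whole table, 4286 of the 21839 genes matched to the annotation overlap an opposite exon by at least 100 bp, and these held 62.9% of the fragments. At least 1 fragment was found for 80.0% of them and for 48.7% of the other genes. Among the markers with an overlap of at least 100 bp, Gata3 and Pou5f1 were at 0 and Krt8 was detected. Of the 7 markers with less or no overlap, Gata6 among them, 5 were detected. Whether the overlaps bear on these counts was not tested. Cdx2, Elf5, Krt18 and Klf4, which were detected, and Nanog and Sox2, which were at 0, have no overlapping exon on the other strand. Other genes named above also overlap opposite exons, so their fragments are uncertain in the same way. Among them were Atp1b1 by 575 bp, Cubn by 368 bp, Has2 by 182 bp, Gapdhs by 162 bp, Krt10 by 146 bp and Tbx3 by 115 bp.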

How the data were processed

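RNA of 9 libraries was sequenced with a stranded total RNA kit, named as TruSeq in the labels and as SMARTer in the methods of the study. The authors trimmed reads with cutadapt 1.9.3, aligned them with HISAT2 to mm10 and ran Cuffdiff with an Ensembl annotation, and other versions are not given in the sources used here. The deposited table holds an estimated count, scaled per library, and an FPKM for each gene and library. Counts were divided by the most common step of each library and rounded. Of the nonzero counts, 95.6% to 96.1% lay within 0.01 of a whole fragment.

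Fragments were tested with edgeR 4.0.16 (R 4.3.3, TMM, all 9 libraries, genes with a mean of at least 1 FPKM), checked on simulated data. A fold over 1.3 with an unadjusted p below 0.05 was called, the thresholds of the study. DESeq2 1.42.0, limma 3.58.1 on log2(FPKM + 1) and log2(FPKM + 0.1), RLE scaling, the deposited factors, other filters and leaving out each library were alternatives. Named were all 10 markers, list genes that were called, keratins with at least 10 fragments, and the 5 genes most like each called marker. From the best covered list genes, up to 6 were named of each wider lineage list and up to 3 of each other list. Further list genes, at 0 or with few fragments, were named after their values were seen. A gene of a wider list is not reported here. Markers and lists were chosen with earlier results of these data known. Intervals are exact binomial (Clopper-Pearson) at 95%. Exon overlaps came from GENCODE M21, which held 96.8% of the gene IDs.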

Additional observations from a re-analysis of the deposited data

How the results depend on the processing

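The number of called genes out of 304, 284, 284 and 298 (ICSI-AOA against ICSI, dICSI-AOA against ICSI, dICSI-AOA against ICSI-AOA, both AOA groups against ICSI) was 529, 467, 503 and 591 without a filter, 156, 134, 134 and 145 with a mean of at least 5 FPKM, where no marker was tested, and 146, 133, 121 and 151 with DESeq2. With the factors of the deposited counts 555 genes were called in dICSI-AOA against ICSI and 504 with both AOA groups, 91.9% and 91.5% of them higher in place of 46.8% and 38.3%, and limma on log2(FPKM + 1) called 434 genes in the former, 90.3% higher. Limma's higher share with both pseudocounts was 80.5% to 92.9% in the comparisons with ICSI and 65.7% to 67.3% between the AOA groups. With the factors of the deposited counts the higher share was 87.2% in place of 42.4% in ICSI-AOA against ICSI and 71.4% in place of 54.9% between the AOA groups. With these factors the median over all genes was 0.25, 0.365, 0.092 and 0.31 on the log2 scale, while Krt8 was at -1.87, -1.33 and -1.60 in the comparisons with ICSI. Leaving out each library gave 241 to 331, 239 to 340, 217 to 346 and 263 to 332 called genes. Of the markers 2, 1, 0 and 1 were called, with ranges of 1 to 2, 1 to 1, 0 to 1 and 1 to 2 when a library was left out. In ICSI-AOA against ICSI 1 marker, Krt8, was called with DESeq2, with limma on either scale and in the fit of only the libraries compared. In dICSI-AOA limma on log2(FPKM + 0.1) called 0, and with both AOA groups 2 were called by RLE scaling or without a filter, as Elf5 passed the threshold. The number of detected markers was 6 also with at least 3 fragments required.

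Krt8 ranged from -2.74 to -1.81 in ICSI-AOA, from -1.88 to -1.43 in dICSI-AOA and from -2.21 to -1.68 in both AOA groups against ICSI when a library was left out. Elf5 ranged from -1.95 to -0.11, from -1.02 to 0.82 and from -1.48 to 0.35, and Klf4 in ICSI-AOA from -1.39 to 0.48. Elf5 was at 0.079 and 0.29 in dICSI-AOA by limma on log2(FPKM + 1) and log2(FPKM + 0.1), and at 0.087 in both AOA groups on the latter. Klf4 in ICSI-AOA was at 0.23 with the deposited factors and 0.13 by limma on log2(FPKM + 1). Apart from the libraries left out, the cause was not tested. Replicate numbers 1, 4 and 5 recur in ICSI-AOA and dICSI-AOA. Same-numbered libraries deviated together with r of 0.0637, -0.0128 and 0.0558, and differently numbered ones with r of -0.0772 to 0.0247. Same-numbered libraries were not taken as pairs. Between the AOA groups a replicate block called 291 genes and no marker, with 19 genes at an adjusted p below 0.05 in place of 6. Number 5 also occurs in ICSI, which the comparison of r did not include.

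Low numbers of assigned fragments limited the comparisons. For Cdx2, with 18 fragments, the counting interval of the ratio of ICSI-AOA to ICSI ran from 0.102 to 1.73.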
